A study of Brassica juncea with 4 samples.

Results

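The transcripts described here are those that 109 array probes detected in the leaves of both genotypes and that gave a higher signal on every array of BnCRY2aOE than on every array of wild type. BnCRY2aOE plants are Brassica juncea (Indian mustard), cultivar RLM-198, in which the Brassica napus cryptochrome gene BnCRY2a is overexpressed. Wild type is the same cultivar without the transgene. Leaves of soil-grown plants were harvested 45 days after sowing with no treatment beforehand, and each genotype was measured on 2 one-colour Agilent arrays designed for B. napus, which the labels call biological replicates. The promoter of the transgene, the number of transgenic lines and the number of plants behind an array are not stated in the labels, so differences can be set only against the spread between these arrays.

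The members were chosen by their measured signals on all 4 arrays. A level is the log2 processed signal of a probe minus the 75th percentile of that array, so a level of 0 lies at that percentile. Fold differences between genotypes or between replicates are taken from levels. Signals in brightness units are not scaled between arrays. A member had to be well above background on all 4 arrays, a mark set by the scanner software, and its level had to be at least 1 higher, which is 2-fold, in all 4 pairings of a BnCRY2aOE array with a wild-type array. Of 43603 probes on the array, 27980 were well above background on all 4 arrays, 27942 of these had a level on every array, and 109 of them, 0.390%, met the rule. The other 38 had a spot marked as an outlier and could not be judged. All differences between the genotypes given below come from the comparison that chose the members, so they are descriptions and carry no test.

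Cryptochromes are blue-light photoreceptors of plants that carry a flavin chromophore. In Arabidopsis, light-activated cryptochrome 2 restrains a ubiquitin ligase complex that degrades light-signalling transcription factors, binds transcription factors directly, and promotes flowering under long days. In the files a probe has an ID and a source sequence identifier, neither of which is paired with a gene name, and no annotation was used here. Which genes the 109 probes measure, whether cryptochrome itself is among them, and whether leaf markers are present could not be looked at. B. juncea carries several related copies of most genes, so the signal of a probe can come from more than 1 of them.

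The share of probes well above background was 67.5% to 71.4% across the arrays. The 4 arrays lay on 1 slide and were read in 1 scan, with the wild-type arrays in positions 1 and 2 and the BnCRY2aOE arrays in positions 3 and 4, so position on the slide and genotype cannot be told apart. Each of the 109 members was read from a single spot per array. In 4 successive blocks of the array's rows lay 28, 23, 32 and 26 members, where the blocks held 23.2%, 25.1%, 26.2% and 25.5% of all detected probes. Position along the columns was not looked at.

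The members differed between the genotypes by a median of 3.98-fold, which is 1.99 on the log2 scale. The mean difference ran from 1.08 to 6.60 on that scale, while over all 27942 detected probes the median was -0.02. In 7 members the mean difference was 16-fold or more, in 18 it was between 8-fold and 16-fold, in 29 between 4-fold and 8-fold, and in 55 between 2-fold and 4-fold. Taken pairing by pairing, 33 members were at least 4-fold higher in the pairing that separated them least, and 13 were at least 8-fold higher there. At the other end, 50 members were less than 2.5-fold higher in that pairing.

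**Figure D1:**
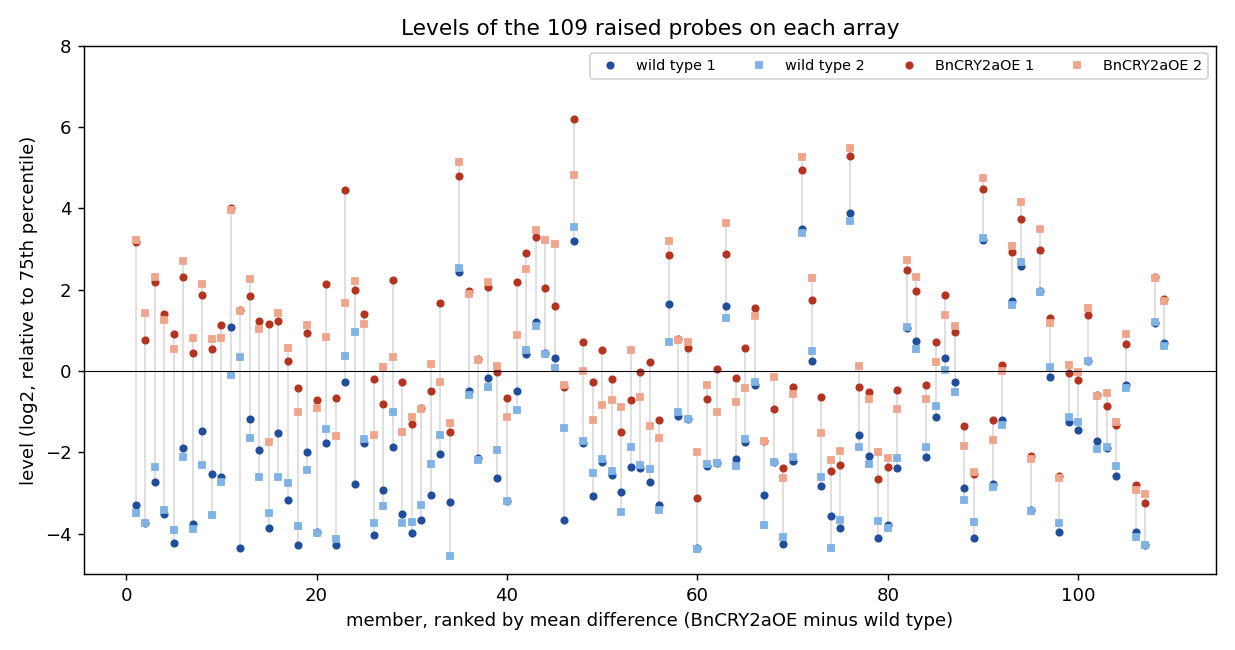
Level of each of the 109 members (y axis, log2 signal minus the 75th percentile of its array) on the 4 arrays, with members ranked along the x axis by mean difference; blue points are wild type, red points BnCRY2aOE, circles replicate 1 and squares replicate 2, and the grey bar spans the 4 values. The mean difference falls from 6.60 at rank 1 to 1.08 at rank 109, and by the rule no blue point lies above a red point of the same member.

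The member with the largest difference was probe A_46_P137029. Its processed signal was 22.4 and 20.0 brightness units on wild type replicates 1 and 2, and 2311 and 2025.4 units on BnCRY2aOE replicates 1 and 2. On the level scale wild type was at -3.40 ± 0.15 and BnCRY2aOE at 3.20 ± 0.02 (SD, n = 2), a 97.2-fold difference. The replicates of each genotype lay within 1.15-fold of each other, and the genotypes were 89.4-fold apart in the closest pairing. The normexp background correction starts from the median intensity, adds an offset of 50 units and scales the arrays by quantiles. Under it the difference was 4.05 on the log2 scale in place of 6.60. The signal went from well below the 75th percentile in wild type to well above it in BnCRY2aOE.

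Probe A_46_P195179 followed, with 16.4 and 17.0 units in wild type and 432 and 590 units in BnCRY2aOE. Its level was -3.74 ± 0.00 in wild type and 1.10 ± 0.48 in BnCRY2aOE (SD, n = 2), a 28.7-fold difference. On that scale the wild-type arrays were nearly equal, and BnCRY2aOE replicate 2 was 1.59-fold above replicate 1. The scanner software put the error of the processed signal at 15.8% and 14.9% on the wild-type arrays and at 10.0% on both BnCRY2aOE arrays. Under the normexp background correction with an offset of 50, the difference was 2.26 on the log2 scale in place of 4.84. There the probe no longer passed the limma test over all probes that is described further on. It also missed that test without a filter on dim probes and with a replicate block. The probe was chosen on this same contrast, so passing or missing that test is not read as evidence about it. Without wild type replicate 1 the difference was 4.84.

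The next 5 members by mean difference had much the same form, with dim wild-type spots and bright BnCRY2aOE spots. The third read 33.1 and 43.9 units in wild type against 1163 and 1089 units in BnCRY2aOE, a 28.0-fold mean difference. The fourth read 19.2 and 21.2 units against 676 and 522 units, also 28.0-fold. The fifth read 11.7 and 15.0 units against 481 and 316 units, 27.9-fold. On the level scale no replicate pair within these 3 members differed by more than 1.30-fold. The sixth read 59.2 and 52.3 units in wild type against 1256 and 1427 units, 22.9-fold, and the seventh 16.2 and 15.3 units against 348 and 380 units, 22.0-fold. All 7 lay below the array's 75th percentile on both wild-type arrays and above it on both BnCRY2aOE arrays.

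Below these, the 18 members with mean differences between 8-fold and 16-fold were less uniform. Their wild-type mean levels ran from -4.21 to 0.49 and their BnCRY2aOE mean levels from -1.14 to 3.98. In 10 of the 18 both replicate pairs lay within 2-fold, as in the member ranked 13, with levels of -1.19 and -1.65 in wild type and 1.84 and 2.25 in BnCRY2aOE. In the member ranked 20, levels were -3.97 and -3.99 in wild type and -0.71 and -0.91 in BnCRY2aOE, so that it stayed below the 75th percentile on all 4 arrays at a 9.03-fold difference. In others a single array made much of the difference. The member ranked 15 had levels of -3.87 and -3.50 in wild type, 1.17 in BnCRY2aOE replicate 1 and -1.74 in BnCRY2aOE replicate 2. Its mean difference was 10.6-fold and its closest pairing 3.40-fold.

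Signal strength in wild type varied widely among the members. How bright a probe is depends on its sequence as well as on its transcript, more so on an array of another species, so these levels were not read as an order of transcript amounts. On all 4 arrays 41 members lay below the 75th percentile and 21 lay above it. Another 29 (26.6%) lay below it on both wild-type arrays and above it on both BnCRY2aOE arrays, a crossing found in 106 (0.379%) of all detected probes, though a raised level favours it by construction. In the remaining 18 the arrays of at least 1 genotype lay on both sides of it.

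The 23 members with a wild-type mean above the 75th percentile had a median difference of 1.65 on the log2 scale, and the 86 others 2.04. The wild-type mean is also part of the difference, so a low one widens it by construction, and nothing is read from this split. The largest difference among the 23 was 3.49. Of the members with a strong signal in wild type, the member ranked 76 read 3250 and 2911 units in wild type against 9981 and 9746 units in BnCRY2aOE, a 3.05-fold mean difference. The member ranked 35 read 1198 and 1320 units against 7022 and 7710 units, 5.56-fold. In both, the genotypes were farther apart than the replicates. The replicates were less even where the member ranked 47 read 2003 and 2638 units in wild type, 18562 units in BnCRY2aOE replicate 1 and 6125 units in BnCRY2aOE replicate 2.

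**Figure D2:**
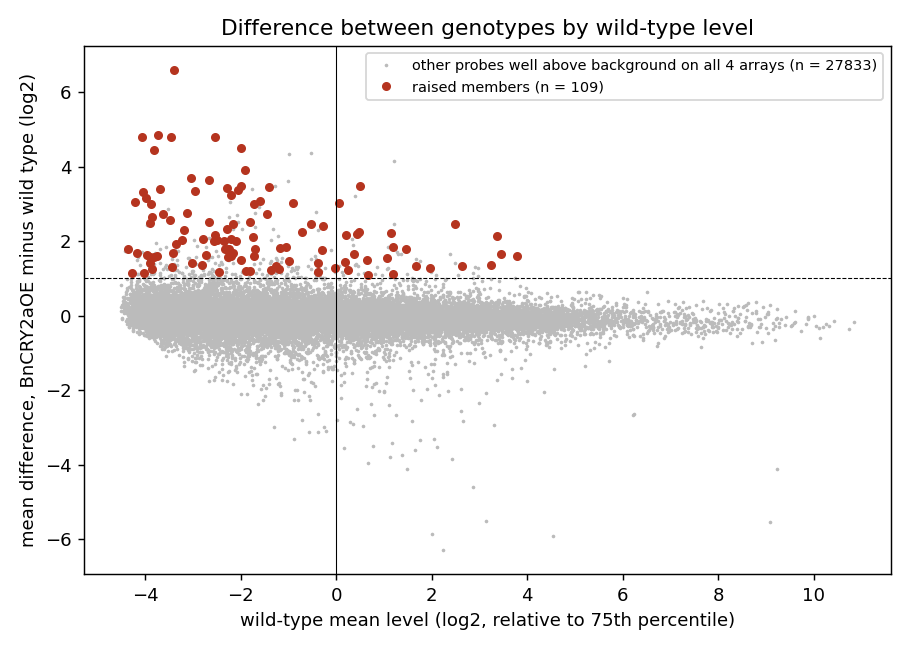
Mean difference between the genotypes (y axis, log2, BnCRY2aOE minus wild type) against the wild-type mean level (x axis, log2 relative to the array's 75th percentile) for the 109 members (red) and the other probes well above background on all 4 arrays (grey); the dashed line marks a mean difference of 1. Of the members, 86 lie left of the vertical line at 0, and the 7 with differences of 16-fold or more have wild-type levels from -4.07 to -2.00. The wild-type mean enters both axes.

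At the dim end, the members approached the limit of detection in wild type. The lowest level of any probe marked well above background was -4.57 and -4.65 on wild type replicates 1 and 2. On both of these arrays 18 members (16.5%) lay within 2-fold of that limit, against 4.64% of all detected probes, and 64 members (58.7%) lay at least 4-fold above it. Choosing probes that are lower in wild type favours dim wild-type levels by construction. The member with the lowest mean level in wild type, ranked 60 by difference, read 10.8 and 10.9 units there and 29.1 and 54.7 units in BnCRY2aOE. On the level scale its BnCRY2aOE replicates were 2.20-fold apart. The median reading error of the members was 10.9% and 10.7% on the wild-type arrays and 10.0% on both BnCRY2aOE arrays, and 10.1% on each array over all detected probes.

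The same 2-fold rule without the demand for detection in wild type shows where the 109 stand. Among probes well above background on both BnCRY2aOE arrays, 242 were higher in all 4 pairings by 2-fold or more: the 109 members, 39 that were well above background on 1 wild-type array, and 94 on neither. In the opposite direction 137 probes detected on all 4 arrays were at least 2-fold lower in BnCRY2aOE in every pairing, with a median difference of 3.63-fold. Whether the raised and lowered probes differ in any of these respects was not tested.

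Replicate arrays of a genotype were mostly close for the members. The median gap between replicates was 1.16-fold in wild type and 1.26-fold in BnCRY2aOE, and over all detected probes it was 1.11-fold and 1.26-fold. In 86 of the 109 both genotypes' replicates lay within 2-fold of each other. In 97 the closest pairing of the genotypes was wider than both replicate gaps, and in the other 12 it was not. The rule limits these gaps only in part, because a wide gap inside a genotype is allowed as long as the genotypes do not come near each other.

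Wild-type replicates were 2-fold or more apart in 7 members (6.42%), against 1.95% of all detected probes. In 3 of the 7, wild type replicate 1 was more than 4-fold below wild type replicate 2, and the mean difference of these members rests largely on it. The member ranked 12 had levels of -4.35 and 0.35 in wild type, against BnCRY2aOE levels with a mean of 1.48, so its 11.2-fold mean difference was 2.17-fold in the closest pairing. The member ranked 24 had levels of -2.79 and 0.96 in wild type and 1.99 and 2.21 in BnCRY2aOE, with a closest pairing of 2.05-fold. For the member ranked 46 the levels were -3.66 and -1.41 against -0.40 and -0.34, with a closest pairing of 2.00-fold. These 3 would be members on wild type replicate 2 alone only by a narrow margin.

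BnCRY2aOE replicates were 2-fold or more apart in 16 members (14.7%), against 10.1% of all detected probes. Replicate 1 was the higher in 12 of the 16 and replicate 2 in 4, while over all detected probes 5.61% were 2-fold or more higher on replicate 1 and 4.49% on replicate 2. The widest gap was the 7.50-fold of the member ranked 15, given above. The member ranked 23 came next, with levels of -0.27 and 0.38 in wild type, 4.46 in BnCRY2aOE replicate 1 and 1.68 in BnCRY2aOE replicate 2, a gap of 6.89-fold. In the opposite sense the member ranked 45 had levels of 0.33 and 0.08 in wild type, 1.60 in BnCRY2aOE replicate 1 and 3.14 in BnCRY2aOE replicate 2. For these members the rule fixes the direction, but the size differed between the 2 transgenic samples by more than the rule's own threshold.

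**Figure D3:**
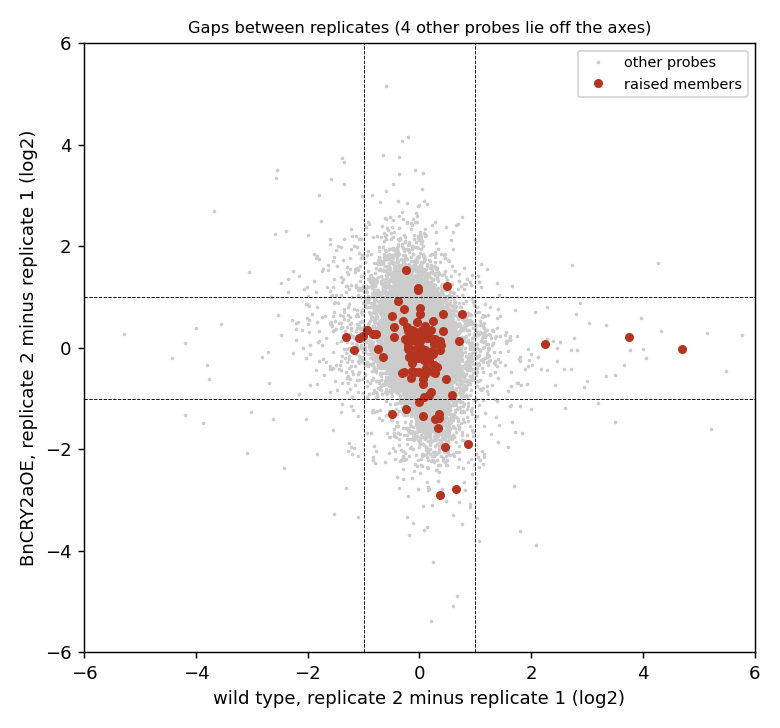
Gap between replicates (log2, replicate 2 minus replicate 1) in wild type (x axis) and BnCRY2aOE (y axis) for the 109 members (red) and the other detected probes (grey, 4 of them off the axes); dashed lines mark 2-fold. In all, 86 members fall inside both pairs of lines, 3 lie to the right of the lines in wild type, where replicate 1 was low, and 12 lie below them in BnCRY2aOE, where replicate 1 was high.

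The 109 members came from 106 source sequences. For 98 members the array holds no second probe of the sequence. The other 11 belong to 8 sequences with 2 probes each, which gives 5 further probes that are not members. Both probes of a sequence are read from the same RNA and on the same arrays, so a second probe is a repeated reading and not a second sample.

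Both probes were members in 3 of the 8 sequences. In the sequence of the members ranked 9 and 11, the mean differences were 13.1-fold and 11.2-fold. The first of these probes had levels of -2.53 and -3.55 in wild type and 0.55 and 0.79 in BnCRY2aOE, and the second had 1.08 and -0.09 in wild type and 4.00 and 3.97 in BnCRY2aOE. On both probes wild type replicate 1 was the higher wild-type array by about the same amount, 2.02-fold and 2.26-fold. In the sequence of the member ranked 71 the differences were 3.16-fold and 3.05-fold, and all 8 values lay above the 75th percentile. The third such sequence gave 12.6-fold on the member ranked 10 and 4.76-fold on its partner, so its probes shared the direction and not the size.

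In 2 more sequences, those of the named probes, the second probe was higher in BnCRY2aOE as well but was well above background on neither wild-type array, which kept it out of the members. The partner of A_46_P137029 had levels of -6.25 and -4.74 in wild type and 4.44 and 4.32 in BnCRY2aOE. Where its own wild-type level was below the lowest that was well above background on the array, that lowest level was used in its place. This put BnCRY2aOE 507-fold higher, which is not a lower bound, since a spot can miss the mark above that level. The partner of A_46_P195179 had levels of -4.68 and -4.82 in wild type and 2.36 and 2.87 in BnCRY2aOE, 149-fold higher by the same reckoning. On this reckoning both partners gave a wider separation than the members beside them.

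In 2 of the remaining 3 sequences the second probe was not raised in the same way. The member ranked 49 had a mean difference of 2.05 on the log2 scale and its partner 0.47, with partner levels of 5.85 and 6.16 in wild type and 6.97 and 5.99 in BnCRY2aOE, so that the genotypes overlapped. The partner of the member ranked 82 had levels of 3.61 and 3.71 in wild type and 2.99 and 3.64 in BnCRY2aOE. Its mean difference was -0.35, where the member had 1.54. The partner of the member ranked 81 was well above background on 1 array of each genotype only. Its levels were -4.14 and -3.40 in wild type and -3.19 and -4.58 in BnCRY2aOE, so the genotypes overlapped in these dim readings. The 8 sequences thus split into 5 with both probes higher by 2-fold or more in every pairing and 3 without. Of the 3, 1 rests on this dim partner, and in 2 of the 5 the partner was well above background on neither wild-type array. Why probes of 1 sequence part was not tested.

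**Figure D4:**
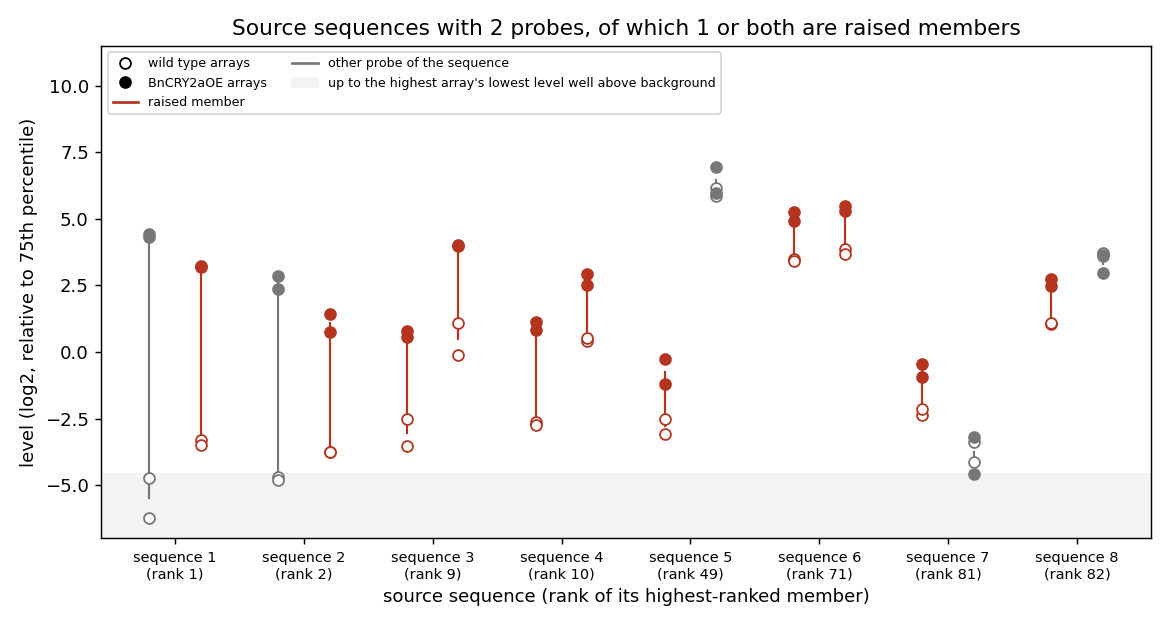
Levels (y axis, log2 relative to the array's 75th percentile) of the 8 source sequences that have 2 probes and hold a member. Both probes are shown, and sequences are ordered by the rank of the highest-ranked member. Open points are the 2 wild-type arrays and filled points the 2 BnCRY2aOE arrays. Lines join the genotype means, members are red and other probes grey, and the shaded band reaches up to -4.57. Both probes are higher in BnCRY2aOE in the first 4 sequences and in the sixth, while in the fifth and eighth the genotypes overlap on the grey probe; the grey probe of the seventh was well above background on 1 array of each genotype only.

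By the form of their source identifiers, 25 members (22.9%) had one starting with TA and 22 (20.2%) one starting with TC, both forms used for sequences assembled from expressed sequence tags. The same forms made up 19.5% and 16.1% of all detected probes. The identifier of 61 members (56.0%) had the form of a single database sequence, against 62.5% of all detected probes, and 1 member was listed under its probe ID alone. These shares are given as a description and were not tested.

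A limma fit over the 29949 probes detected on both wild-type arrays, on both BnCRY2aOE arrays or on all 4 gives the members' place in the whole table. Of these probes 136, or 0.454%, had a Benjamini-Hochberg adjusted p under 0.05, and 59, or 0.197%, did so with a higher level in BnCRY2aOE, against 77 with a lower one. Without wild type replicate 2 the balance turned to 157 higher and 54 lower, without wild type replicate 1 it was 17 and 20, and under normexp 8 and 20. Of the 109 members 22 were among the 59. The members were selected on this same contrast, so nothing is read from these counts about the members. The smallest difference called among them was 4.69-fold, and 15 of the 25 members with differences of 8-fold or more were called. The larger of the 2 replicate gaps had a median of 0.36 on the log2 scale in the 22 called members and 0.52 in the 87 others. A small gap favours a call by construction, so nothing is read from this split. Leaving out wild type replicate 1 changed the 22 to 3, all among the 22. Leaving out wild type replicate 2 gave 13, and leaving out BnCRY2aOE replicate 1 gave 11, with 10 of the 22 in each. Without BnCRY2aOE replicate 2 there were 23, of which 12 were among the 22.

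The boundary of the group is not a gap in the data. In their closest pairing, the 5 members nearest the threshold were 2.00-fold to 2.02-fold higher, and the 5 nearest probes outside it were 1.98-fold to 2.00-fold higher. The mean differences of the first 5 were 2.24-fold to 4.47-fold and those of the second 5 were 2.07-fold to 2.65-fold. Between 1 and 1.1 on the log2 scale lay 22 members, and between 0.9 and 1 lay 28 probes that are not members. Of all detected probes, 354 had a mean difference of at least 2-fold, and 245 of them missed the rule in at least 1 pairing.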

How the data were processed

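Each sample has a scanner file with a processed intensity per spot, which Agilent Feature Extraction 10.7.3.1 made per the file headers by background and trend correction within the array. The deposited log2 value table of the whole series, of unstated scaling and centring, served as an alternative. For 43603 probes the level was the log2 of the processed intensity after division by its 75th percentile on that array, spots marked as outliers were left missing, and no spot was saturated. Members and comparisons were chosen with earlier results of these data known. Without gene names, IDs were printed only for the 2 members with the largest mean difference, and all others were given by rank. A linear model of genotype was fitted to every probe (limma 3.58.1, R 4.3.3) with two-sided tests, Benjamini-Hochberg adjustment and 2 residual degrees of freedom. The fit was run on simulated data with the same spread for every probe in both genotypes. The measured spread differed between the genotypes, so that run does not show how the fit behaves here. Gene lists could not be used without gene names. Replicate numbers occur in both genotypes, but the labels do not pair the arrays. Precision is limited by the 2 arrays of each genotype.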

Additional observations from a re-analysis of the deposited data

How the results depend on the processing

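Normexp without marked spots and scaling to spike-in controls were chosen after seeing the data, and the planned normexp correction used the median intensity because the files hold no raw mean. All 109 members stayed higher in BnCRY2aOE on average in each of the 10 alternatives in which their differences were computed, a direction that their selection favours. The authors' value table, kept outlier spots, detection in every spot and scaling by quantiles, medians or spike-ins gave 106 to 135 members. Spike-in scaling moved the median change of all tested probes to 0.12. Normexp, fitted with or without marked spots, was followed by quantile scaling. It gave 37 members, 28 called probes, 5 called members and a median member difference of 1.01. Its offset of 50 lowers folds of dim signals by construction. A limit of 1.5 on the log2 scale left 47. Leaving out 1 array gave 239 to 542 members, since fewer pairings and detection on fewer arrays are asked for. The median difference of the 109 members was then 1.82 to 2.09. The 136 called probes became 30 with only probes detected on all 4 arrays tested, 46 without a filter on dim probes, 38 with a replicate block and 37 to 211 with 1 array left out, with the remaining array of that genotype taken to vary as the other 2 do. Called members, 22 in all, became 14, 6, 3 and 3 to 23 in the same order. Same-numbered arrays did not deviate together (r = -0.16 across probes). The cause of these moves was not tested, beyond those that follow from the settings themselves.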
